A study of Saccharomyces cerevisiae with 6 samples.

Results

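The 3′ external transcribed spacer (3′ ETS) is the stretch of ribosomal DNA that follows the 3′ end of 25S rRNA, where transcription by RNA polymerase I (Pol I) ends. Its members were taken as every position that the authors' tables assign to the second external spacer, which gave 211 of 6858 positions and 1 of 7 annotated regions. It lies at chrXII:460712-460922 on the minus strand of build R64 and is annotated there as the noncoding gene ETS2-2. Positions are numbered below from nt 1, the first base after 25S. The rule that chose them uses the annotation and no measured value, though earlier results of these data were known. The authors scaled each library to a sum of 1000000 over positions that end at nt 92 of the spacer, so it was described as an upstream segment of 92 nt and a downstream segment of 119 nt (nt 93 to 211).

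Pol I occupancy was measured by NET-seq (native elongating transcript sequencing). In this assay Pol I is immunoprecipitated and the 3′ ends of the RNA it holds are mapped to single bases. There were 6 libraries of Saccharomyces cerevisiae grown at 30 ºC, 2 from wild-type (WT) cells, 2 from paf1△ cells, which lack PAF1, and 2 from cdc73△ cells, which lack CDC73. The labels name no other allele, drug or tag, and they do not say whether replicates were separate cultures, so p-values measure the spread between these samples, which may be technical. The deleted genes lie outside the tables, so the deletions could not be checked here.

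Paf1 and Cdc73 are subunits of the Paf1 complex, which travels with elongating polymerase and is best known for its roles with RNA polymerase II. At the end of the ribosomal transcript, the nascent 3′ ETS folds into a long stem capped by an AGNN tetraloop, and the RNase III enzyme Rnt1 cuts both strands of that stem while Pol I is still transcribing. Pol I is then released at a U-rich element, followed in the DNA by the binding site of the Myb-like proteins Reb1 and Nsi1, and the exonuclease Rat1 pursues the cut RNA. An RNA 3′ end in such a library can belong to an elongating transcript or to a cut or mature RNA that stayed with Pol I, and the values do not separate them.

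Both segments are printed in full, as RNA and 5′ to 3′ from the deposited tables, because the signal turned on a few of their bases. Capitals in the upstream segment (chrXII:460831-460922) mark nt 3 to 5, 14, 15 and 92, which were picked after their values were seen. They hold the peak beside 25S, the pair of peaks at nt 14 and 15, and the last base of the scaling sum. They are not the highest bases in every genotype. Nt 19 and nt 33 were among the 5 highest upstream positions of WT, and nt 26 among those of cdc73△, and these are not marked. Capitals in the first copy of the downstream segment (chrXII:460712-460830) mark CGGGUAA, and those in the second copy mark its 5 highest positions in WT.
Upstream segment: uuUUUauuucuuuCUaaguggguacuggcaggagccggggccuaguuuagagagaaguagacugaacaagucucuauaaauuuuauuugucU
Downstream segment: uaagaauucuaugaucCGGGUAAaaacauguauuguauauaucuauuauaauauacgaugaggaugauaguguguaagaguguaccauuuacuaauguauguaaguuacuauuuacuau
Downstream segment, WT peaks: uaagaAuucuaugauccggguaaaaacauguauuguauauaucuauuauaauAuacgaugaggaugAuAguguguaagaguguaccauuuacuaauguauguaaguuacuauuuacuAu
Hairpin of nt 25 to 38: cuggcAGGAgccgg
The hairpin has 5 base pairs, and its capitals mark the 4 loop bases, nt 30 to 33. RNAfold 2.7.2 folded the upstream segment at −33.3 kcal/mol into 1 long stem that joins nt 5 to nt 59 and is capped by this loop. In that fold nt 14 pairs with nt 50 and nt 15 with nt 49. Hairpins with an AGNN loop and at least 3 pairs, read on the RNA strand, occur at 31 places in the table, 3 of them in the 3′ ETS (loops from nt 30, 49 and 169), and 29.6% of all 92-nt windows hold one. CGGGUAA, at nt 109 to 115, is the RNA-strand form of TTACCCG, the core searched for Reb1 and Nsi1. It occurs 3 times in the table on either strand, and 4.79% of 119-nt windows hold it. A run of 5 or more U was found once here, from the last base of 25S to nt 5, and 18.5% of 92-nt windows hold such a run. These matches are descriptions and no sites.

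Depth differed by genotype and bears on every comparison with WT. The WT libraries held 480708 and 226202 reads, the cdc73△ libraries 18428847.5 and 14965806.5, and the paf1△ libraries 29671814 and 14203939.5 if their smallest value is 1 read. In the downstream segment this left 513 and 258 reads in WT, against 11928 and 5832 in paf1△ and 3857 and 2876 in cdc73△. Of its 119 positions, 37 and 46 were at 0 in the WT libraries, and 0 to 5 in the others. Depth and genotype cannot be told apart in the WT comparisons. Thinning all libraries to 226202 reads is given where it changed a call that was followed through it. These were the window calls, the counts of calls, and the 3 largest rises and falls per comparison and segment. Other calls printed at single positions were not followed through thinning or the leaving out of libraries. Values are shares of a fixed total, so a lower share at one place means a higher one elsewhere. Nt 1 and nt 2 were at 0 in all 6 libraries, as was the last base of 25S, so 209 positions could carry a value.

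The 3′ ETS held 0.619% and 0.644% of the signal in WT, 0.677% and 0.590% in paf1△, and 0.442% and 0.513% in cdc73△, from 3.08% of the table's length. Per base that is 0.205 ± 0.00575 times the table's mean in WT (SD, n = 2), 0.206 ± 0.0201 in paf1△ and 0.155 ± 0.0163 in cdc73△. The 5′ ETS, the spacer at the other end, stood at 0.922 ± 0.106 in WT, 0.442 ± 0.00380 in paf1△ and 0.348 ± 0.0134 in cdc73△. The internal spacers stood closer to the 3′ ETS, with 0.250 ± 0.00878, 0.183 ± 0.00435 and 0.159 ± 0.00206 in ITS1 and 0.282 ± 0.0151, 0.313 ± 0.0304 and 0.323 ± 0.0187 in ITS2, in the same order of genotypes. In the 3′ ETS share the paf1△ libraries lay on both sides of WT, with an exact two-sided permutation p of 1. The cdc73△ libraries lay below all others. With 2 libraries against 2, an exact permutation test cannot give less than 0.333, which was its p here and for each segment share and ratio below.

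The 2 segments differed. Upstream, WT held 0.512% and 0.530% of all signal, paf1△ 0.637% and 0.549%, and cdc73△ 0.421% and 0.493%. These groups did not overlap, with means of 0.521% ± 0.0125, 0.593% ± 0.0625 and 0.457% ± 0.0513 (SD, n = 2). With every position capped at the 99th percentile of its library, the log2 ratio of paf1△ to WT turned from 0.19 to −0.12, and the means of both deletions lay below WT. Relative to the last 211 nt of 25S, the upstream density was 0.266 ± 0.00414 in WT, 0.305 ± 0.0440 in paf1△ and 0.262 ± 0.0359 in cdc73△, where cdc73△ overlapped WT (log2 ratio −0.02, exact permutation p = 1) and paf1△ (exact permutation p = 0.667).

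Downstream, WT held 0.107% and 0.114% of all signal, with 95% Wilson intervals for counting error only of 0.0979% to 0.116% and 0.101% to 0.129%. The paf1△ libraries held 0.0402% and 0.0411%, and the cdc73△ libraries 0.0209% and 0.0192%. The order WT, paf1△, cdc73△ held without overlap, with log2 ratios of −1.44 for paf1△ to WT, −2.46 for cdc73△ to WT and 1.02 for paf1△ to cdc73△. Counting from 10 nt earlier, which puts nt 92 in the segment, made these −0.58, −1.76 and 1.17.

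The signal per base downstream was 0.161 and 0.167 of that upstream in WT, 0.0488 and 0.0578 in paf1△, and 0.0385 and 0.0301 in cdc73△. All 4 deletion libraries lay below both WT libraries by this measure, which uses no scaling between libraries. Its log2 ratios of −1.62 for paf1△ to WT, −2.26 for cdc73△ to WT and 0.64 between the deletions became −0.70, −1.55 and 0.85 with the split 10 nt earlier. Nt 14 and 15 weigh on its upstream side, with 17.4% of the spacer's signal in WT, 42.1% in paf1△ and 37.7% in cdc73△. Without the 6 marked positions, upstream signal was lower in paf1△ and cdc73△ than in WT (log2 ratios −0.43 and −0.51). The fall in this ratio thus rests in part on those positions, as do the next shares and the 90% point. Of the spacer's own signal, 17.5% ± 0.333 lay downstream in WT, 6.45% ± 0.726 in paf1△ and 4.25% ± 0.700 in cdc73△ (SD, n = 2). Counted from nt 1, 90% of the signal was reached at nt 153 in both WT libraries, at nt 92 in both paf1△ libraries and at nt 71 and 60 in cdc73△. Within the downstream segment, 50% of its signal was reached at nt 159 in both WT libraries and between nt 106 and nt 113 in the other 4.

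**Figure D1:**
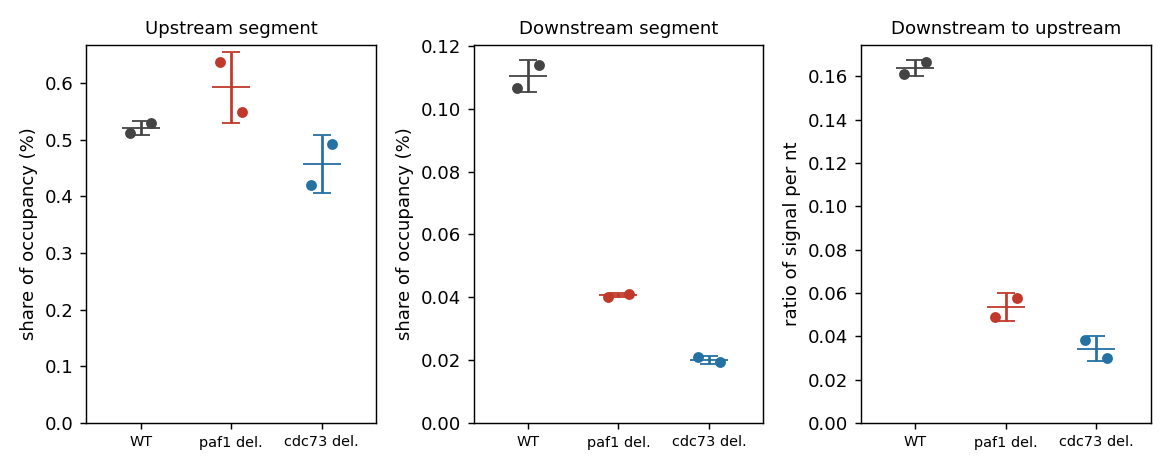
Share of all signal in the upstream and downstream segments (percent) and ratio of downstream to upstream signal per base, by genotype. Points are libraries, wide lines are means and bars are SD (n = 2 per genotype). The upstream shares lie between 0.421% and 0.637%, and the downstream shares and ratios of WT lie above all deletion libraries.

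The profile along the spacer had 3 features in every genotype: a steep decline from 25S, a tall pair of peaks at nt 14 and 15, and a peak at nt 92. Beside the 3′ end of 25S, nt 3 to 5 held 18.4% ± 0.659 of the spacer's signal in WT, 13.4% ± 0.898 in paf1△ and 14.01% ± 0.358 in cdc73△ (SD, n = 2). At nt 3, a U, the signal was 716 and 766 in WT, 515 and 416 in paf1△ and 363 and 430.1 in cdc73△, in units of which the scaling sum holds 1000000. It was lower in paf1△ (log2 fold change −0.63 ± 0.17 SE, limma adjusted p = 0.017) and in cdc73△ (−0.84 ± 0.13, adjusted p = 0.0027) than in WT.

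Nt 14 (a C, chrXII:460909) and nt 15 (a U, chrXII:460908) are the 2 bases that the fold pairs with nt 50 and 49. At nt 15 the signal was 546 and 770.1 in WT, 1916 and 1567 in paf1△, and 992 and 1183 in cdc73△. Every deletion library lay above both WT libraries, and the paf1△ libraries lay above the cdc73△ libraries. On the log2(value + pseudocount) scale nt 15 rose by 1.35 ± 0.24 (SE) in paf1△ (limma adjusted p = 0.0027) and by 0.70 ± 0.20 in cdc73△ (adjusted p = 0.024), and it was 0.66 ± 0.17 higher in paf1△ than in cdc73△ (adjusted p = 0.011).

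At nt 14 the signal was 385 and 505 in WT, 962 and 894 in paf1△, and 634 and 793 in cdc73△. It rose by 1.00 ± 0.18 in paf1△ (limma adjusted p = 0.0032) and by 0.63 ± 0.18 in cdc73△ (adjusted p = 0.024), while the 2 deletions did not pass the test against each other (0.37 ± 0.15, adjusted p = 0.064). Together nt 14 and 15 held 17.4% ± 3.36 of the spacer's signal in WT, 42.1% ± 0.545 in paf1△ and 37.7% ± 1.24 in cdc73△ (SD, n = 2).

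The bases just before the pair moved the same way. Nt 13 had 64.6 and 44.3 in WT, 179.5 and 146 in paf1△, and 129.6 and 174 in cdc73△, and nt 12 had 45.8 and 35.4, 136 and 110.2, and 98.9 and 148. Both rose in both deletions by 0.95 to 1.04 on the log2 scale (limma adjusted p of 0.0018 to 0.0053). On the other strand of the stem, nt 49 and nt 50 stayed at or below 11.7 in every library and passed the test in none of the 3 comparisons.

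At nt 92 (a U, chrXII:460831), the last base of the scaling sum, the signal was 131 and 124 in WT, 311 and 322 in paf1△, and 125 and 124 in cdc73△. The paf1△ libraries were apart from the other 4, which lay between 124 and 131. Nt 92 was 1.05 ± 0.13 (SE) higher in paf1△ than in WT (limma adjusted p = 0.00055) and 1.09 ± 0.10 higher than in cdc73△ (adjusted p = 6.6e-05), while cdc73△ differed from WT by −0.03 ± 0.11 (adjusted p = 0.84). Nt 90 and 91 rose with it in paf1△, by 0.49 ± 0.09 and 0.71 ± 0.15. In the next base, nt 93, the signal dropped to 4.16 and 13.3 in WT, 10.1 and 8.94 in paf1△, and 2.61 and 3.27 in cdc73△.

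**Figure D2:**
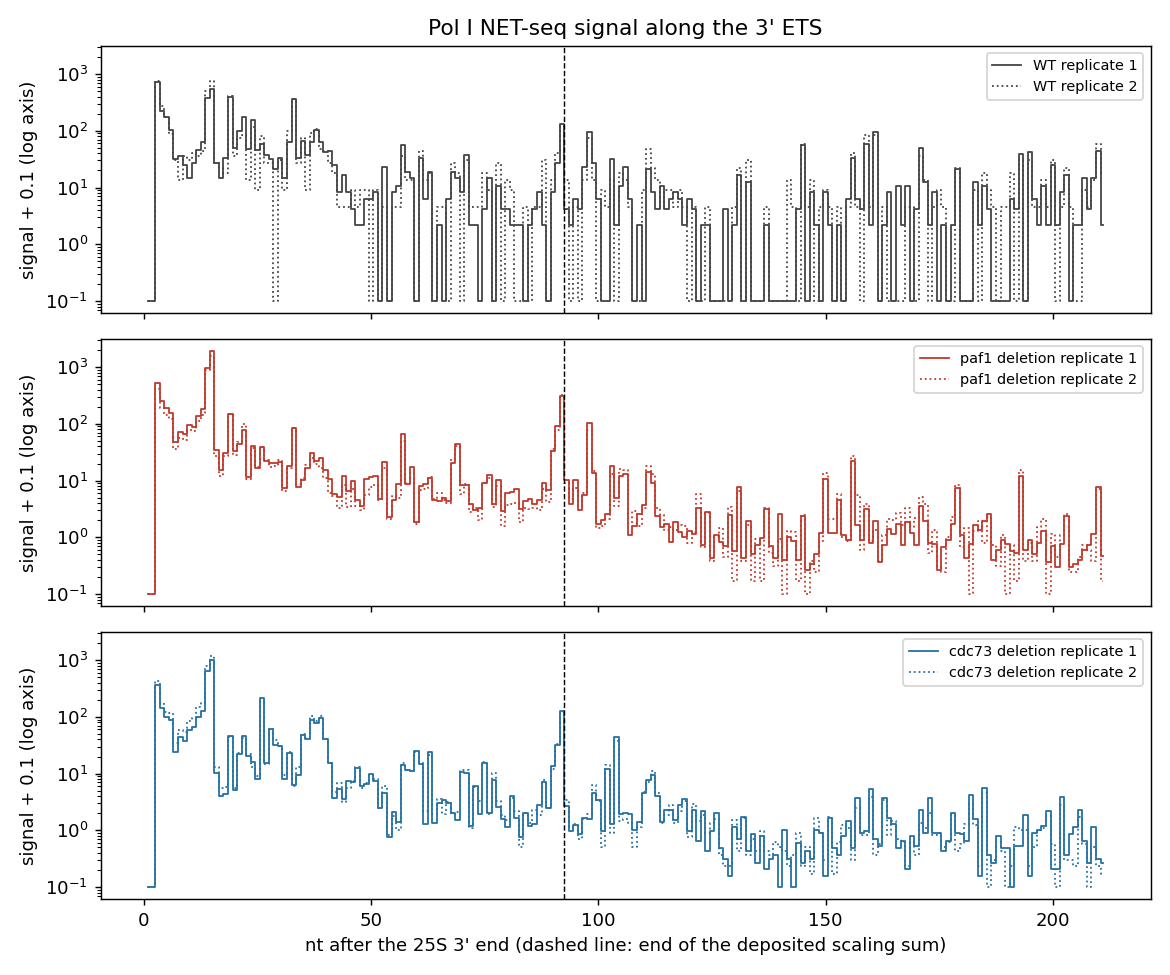
Signal at each of the 211 positions on a log axis, with 0.1 added, in WT (top), paf1△ (middle) and cdc73△ (bottom), with nt after the 25S 3′ end on the horizontal axis. Solid and dotted lines are the 2 replicates, and the dashed line marks the end of the scaling sum after nt 92. The peaks at nt 14, 15 and 92 stand in all 3 genotypes, and after nt 115 the highest WT peaks stand above the deletions. Of the downstream positions, 37 and 46 are at 0 in the WT libraries.

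Between the pair at nt 14 and 15 and the peak at nt 92 the genotypes parted base by base. Nt 33 (an A, chrXII:460890), the last base of the AGGA loop, and nt 19 (a U, chrXII:460904) fell in both deletions. Nt 33 had 369 and 367 in WT, 85.2 and 82.9 in paf1△, and 6.19 and 5.88 in cdc73△. Its groups did not overlap and lay in that order, and it fell by 1.66 ± 0.13 in paf1△ (limma adjusted p = 9.8e-05) and fell by 3.04 ± 0.11 in cdc73△ (adjusted p = 0.0001).

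Nt 19 had 399.8 and 412 in WT, 149 and 152 in paf1△, and 46.9 and 43.9 in cdc73△. It kept the order of nt 33, with log2 fold changes of −1.19 ± 0.13 (limma adjusted p = 0.00032) and −2.33 ± 0.11 (adjusted p = 0.00011). Nt 24 (an A) also fell in both deletions, with −1.08 ± 0.17 in paf1△ and −1.61 ± 0.15 in cdc73△.

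Nt 26 and nt 39, on either side of that loop, lay on opposite sides of WT in the 2 deletions. Nt 26 (a U) had 58.3 and 79.7 in WT, 38.4 and 39.6 in paf1△, and 212 and 186 in cdc73△. It rose by 1.11 ± 0.14 in cdc73△ (limma adjusted p = 0.0015) and fell by 0.42 ± 0.15 in paf1△ (adjusted p = 0.043), and the direct comparison of the deletions gave −1.51 ± 0.11 (adjusted p = 1.4e-05). Nt 39 (a G), 1 base past the hairpin, had 64.6 and 48.7 in WT, 25.2 and 16.6 in paf1△, and 95.1 and 104 in cdc73△, with −1.11 ± 0.09 between the deletions (adjusted p = 3.3e-05). Its neighbour nt 38 had 104 and 106 in WT, 22.4 and 19.2 in paf1△, and 77.3 and 84.5 in cdc73△. Nt 38 fell in paf1△ (−1.15 ± 0.13), a call lost after thinning (adjusted p = 0.069), and did not pass the test in cdc73△ (−0.26 ± 0.12, adjusted p = 0.11).

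**Figure D3:**
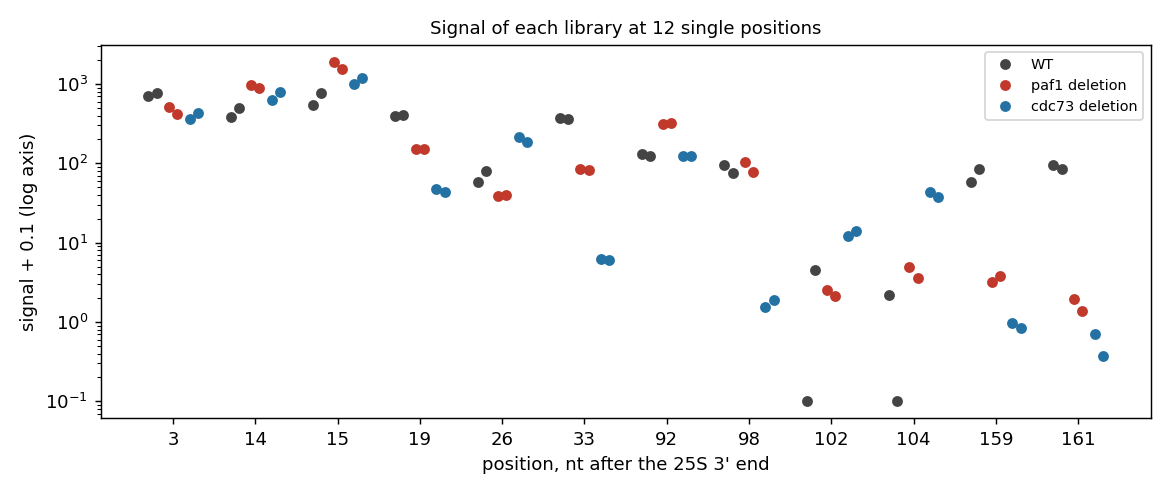
Signal of each library at 12 single positions on a log axis, with 0.1 added, by nt after the 25S 3′ end and coloured by genotype. Each point is 1 library, 2 per genotype. The paf1△ points stand apart at nt 92, and the cdc73△ points are lowest at nt 33 and 98 and highest at nt 26, 102 and 104.

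The same comparison was made on sums over windows, in which a tall base can still make up much of its window. The table was divided into 298 windows, 23 nt long except the last at 27 nt, and the log2 share of each was tested with limma. The spacer fills 9 of them, 4 upstream and 5 downstream. Against WT, paf1△ was higher in 2 and lower in 6 of the 9 windows, and over all windows 37.9% were higher and 32.9% lower. Against WT, cdc73△ was higher in 0 and lower in 7, where 34.2% of all windows were higher and 42.6% lower. Between the deletions, paf1△ was higher in 8 and lower in 1, where 33.2% of all windows were higher and 18.8% lower. The 2 comparisons with WT share the same WT libraries.

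Of the upstream windows, nt 1 to 23 and nt 70 to 92 were the ones higher in paf1△ than in WT. They hold the peaks at nt 15 and nt 92. For nt 70 to 92 the shares were 0.0277% and 0.0340% in WT, 0.0556% and 0.0526% in paf1△, and 0.0252% and 0.0259% in cdc73△. The paf1△ libraries lay above the rest, by 0.82 ± 0.13 (SE) over WT (limma adjusted p = 2.1e-05) and by 1.08 ± 0.10 over cdc73△ (adjusted p = 4.1e-05). For nt 1 to 23 the difference of paf1△ from WT was 0.47 ± 0.12 (adjusted p = 0.0028), and this call was lost without WT replicate 1 (adjusted p = 0.065) or paf1△ replicate 1 (adjusted p = 0.053), and with libraries set to equal medians (adjusted p = 0.076). The difference of the deletions there, 0.51 ± 0.13 (adjusted p = 0.0086), was lost without cdc73△ replicate 1 (adjusted p = 0.12) or paf1△ replicate 1 (adjusted p = 0.11).

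The window of nt 24 to 46, which spans the AGGA hairpin, was lowest in paf1△. Its shares were 0.135% and 0.123% in WT, 0.0467% and 0.0425% in paf1△, and 0.0849% and 0.0871% in cdc73△. The groups did not overlap, and the window fell by 1.53 ± 0.12 in paf1△ (limma adjusted p = 7.5e-09) and fell by 0.58 ± 0.10 in cdc73△ (adjusted p = 0.00058). It was the 1 window of the spacer lower in paf1△ than in cdc73△ (−0.95 ± 0.10, adjusted p = 8.9e-05) and ranked 3 from the lowest of 298 windows in that comparison. Nt 47 to 69 were lower in cdc73△ than in WT (−0.54 ± 0.10, adjusted p = 0.00082) and did not pass the test in paf1△ (0.11 ± 0.12, adjusted p = 0.45).

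All 5 downstream windows were lower in both deletions than in WT, and the fitted differences were larger after nt 115. In nt 93 to 115 the shares were 0.0291% and 0.0287% in WT, 0.0241% and 0.0221% in paf1△, and 0.0111% and 0.0107% in cdc73△. There paf1△ lay below WT (−0.33 ± 0.12, limma adjusted p = 0.021), a call lost without either WT library (adjusted p = 0.092 and 0.078) or paf1△ replicate 2 (adjusted p = 0.11), with an intensity trend (adjusted p = 0.10) and after thinning (−0.05, adjusted p = 0.75), while cdc73△ lay lower still (−1.41 ± 0.09, adjusted p = 1.8e-06).

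In nt 139 to 161 the shares were 0.0289% and 0.0336% in WT, 0.00584% and 0.00708% in paf1△, and 0.00202% and 0.00180% in cdc73△. This window fell by 2.28 ± 0.13 in paf1△ (limma adjusted p = 1.3e-10) and fell by 4.03 ± 0.11 in cdc73△ (adjusted p = 2.5e-08), and it was 1.76 ± 0.12 higher in paf1△ than in cdc73△ (adjusted p = 5.1e-06). It was the lowest of all 298 windows for cdc73△ against WT, from 139 and 76 reads in the WT libraries.

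The last window, nt 185 to 211, held 0.0262% and 0.0309% in WT, 0.00380% and 0.00395% in paf1△, and 0.00256% and 0.00191% in cdc73△. It fell by 2.88 ± 0.12 in paf1△ (limma adjusted p = 2.2e-12) and fell by 3.69 ± 0.15 in cdc73△ (adjusted p = 1.4e-07), rank 4 and rank 2 from the lowest. Nt 116 to 138 and nt 162 to 184 fell too, with −1.29 ± 0.13 and −1.82 ± 0.16 in paf1△ and −1.75 ± 0.13 and −2.36 ± 0.16 in cdc73△. The excess of paf1△ over cdc73△ in these 2 windows, 0.47 ± 0.10 and 0.54 ± 0.16, ranged over the settings from 0.25 to 0.57 and from 0.30 to 1.33. For nt 116 to 138 it was lost after thinning (adjusted p = 0.26), with equal medians (adjusted p = 0.070) and with an intensity trend (adjusted p = 0.058), and for nt 162 to 184 without either cdc73△ library (adjusted p = 0.061 and 0.26) or paf1△ replicate 2 (adjusted p = 0.21), with the trend (adjusted p = 0.063) and with the replicate number as a block (adjusted p = 0.053).

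**Figure D4:**
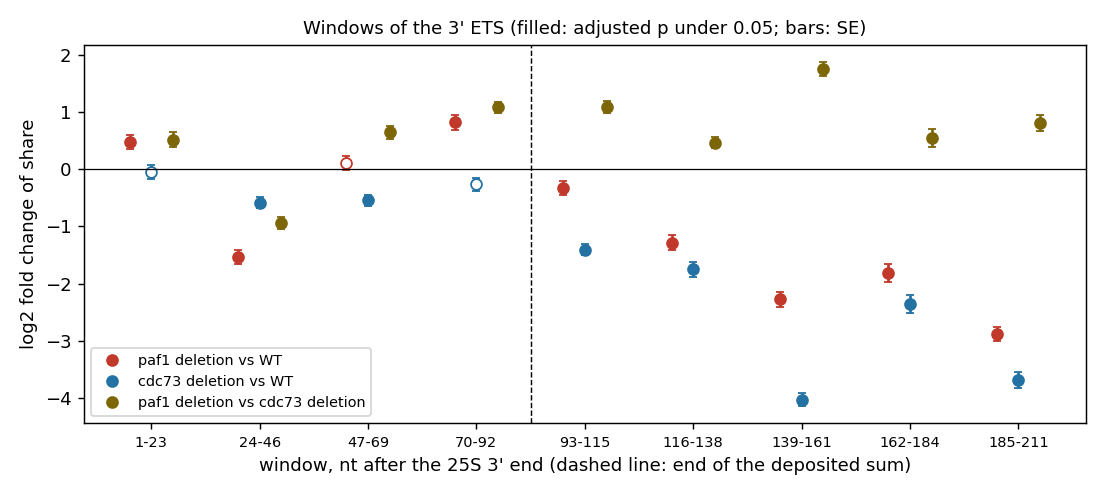
Log2 fold change of the share of each of the 9 windows of the 3′ ETS, ordered by nt after the 25S 3′ end, for paf1△ against WT, cdc73△ against WT and paf1△ against cdc73△. Bars are SE, filled points passed an adjusted p of 0.05, and the dashed line marks the end of the scaling sum. Both deletions lie below WT in the 5 windows after it.

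In WT the downstream signal did not fade towards the end of the table. Windows from nt 93, 139 and 185 on held 0.0289%, 0.0313% and 0.0286% of all signal, with less in the windows between them (0.00861% and 0.0130%). In paf1△ the first of the 5 windows held 0.0231% and the others 0.00350% to 0.00646%, and in cdc73△ the first held 0.0109% and the others 0.00191% to 0.00253%.

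The downstream peaks of WT stood on A. Its 5 highest positions, nt 161, 98, 159, 145 and 210, are all A and held 32.0% of the segment's WT signal. Nt 161 (chrXII:460762) had 95.8 and 84.1 in WT, from 46 and 19 reads, 1.85 and 1.27 in paf1△, and 0.597 and 0.267 in cdc73△. Nt 159 had 58.3 and 84.1 in WT, 3.10 and 3.73 in paf1△, and 0.868 and 0.735 in cdc73△. Nt 145 had 56.2 and 57.5 in WT, 2.26 and 2.39 in paf1△, and 0.163 and 0.134 in cdc73△. All 3 lay lower in both deletions than in WT. Nt 210, the next to last base of the table, had 43.7 and 57.5 in WT, 7.62 and 7.11 in paf1△, and 0.217 and 0.134 in cdc73△. These 4 positions fell in both deletions, with limma log2 fold changes of −0.83 to −1.58 that the pseudocount of 48.1 or 44.3 pulls towards 0 at such low values. They were picked for their high WT values, and such a choice by itself favours a fall against the same WT libraries.

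At nt 98 and nt 156 paf1△ kept more of the WT signal. Nt 98 (an A, chrXII:460825) had 95.8 and 75.2 in WT, 104 and 77.8 in paf1△, and 1.47 and 1.80 in cdc73△. The WT and paf1△ libraries overlapped (limma log2 fold change 0.06 ± 0.17 SE, adjusted p = 0.80), and nt 98 was lower in cdc73△ than in WT by a log2 fold change of −1.50 ± 0.11 (adjusted p = 0.00025). Nt 156 (an A) had 33.3 and 39.8 in WT, 22.0 and 26.8 in paf1△, and 0.380 and 0.200 in cdc73△. Both paf1△ libraries lay below both WT libraries there. It did not pass the test in paf1△, on a scale whose pseudocount of 48.1 exceeds every one of these values (−0.22 ± 0.11, limma adjusted p = 0.12), and fell in cdc73△ (−0.86 ± 0.07, adjusted p = 0.00038). These were the 2 highest downstream positions of paf1△, nt 98 with 22.4% of the segment's signal.

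The highest downstream positions of cdc73△ were instead 2 U at nt 104 and nt 102. Nt 104 (chrXII:460819) had 43.7 and 37.0 in cdc73△, 4.79 and 3.45 in paf1△, and 2.08 and 0 in WT, and it held 20.1% of the cdc73△ segment's signal. WT had 1 read there, so the ratio of cdc73△ to WT, 28.8, had an exact 95% interval for counting error of 5.15 to 1137. Nt 104 was lower in paf1△ than in cdc73△ (−0.77 ± 0.05, limma adjusted p = 8e-06), though not after thinning (adjusted p = 0.079). Nt 102 had 12.2 and 13.97 in cdc73△, 2.43 and 2.04 in paf1△, and 0 and 4.43 in WT, again from 1 WT read. Its ratio of cdc73△ to WT, 9.17, had an interval of 1.64 to 363, and the call (0.30 ± 0.07, adjusted p = 0.011) was lost without either cdc73△ library (adjusted p = 0.13 and 0.20) and after thinning (adjusted p = 0.24). Between these 2 bases, nt 103 (an A) had 1.19 and 0.802 in cdc73△ against 31.2 and 13.3 in WT and 18.1 and 12.8 in paf1△.

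At the Reb1 and Nsi1 core, nt 111 (a G) had 20.8 and 48.7 in WT, 14.1 and 17.8 in paf1△, and 7.54 and 7.08 in cdc73△. It fell in cdc73△ (−0.59 ± 0.17, limma adjusted p = 0.025) and did not pass the test in paf1△ (−0.35 ± 0.16, adjusted p = 0.097). The next base, nt 112 (a G), lay between 8.33 and 22.1 in all 6 libraries and passed the test in none of the comparisons. These 2 bases were among the 5 highest downstream positions of cdc73△, and nt 111 also of paf1△. At nt 99 (a U) cdc73△ had 4.50 and 6.08 against 27.1 and 13.3 in WT, and paf1△ had 13.6 and 14.4. Nt 185 (a U) had 10.4 and 17.7 in WT, 1.82 and 0.704 in paf1△, and 5.59 and 4.54 in cdc73△, and its difference between the deletions (−0.11 ± 0.02, adjusted p = 0.0048) was lost after thinning (adjusted p = 0.38).

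Sorted by base, the downstream signal of the 3 genotypes had different makeups. A is 35.3% and U 37.8% of the downstream positions. A held 70.9% ± 2.08 of the segment's signal in WT, 61.8% ± 4.09 in paf1△ and 14.8% ± 0.0985 in cdc73△, while U held 13.9% ± 1.18, 14.8% ± 0.198 and 62.5% ± 1.16 (SD, n = 2). The mean signal at A was 18.4 and 18.9 in WT, 6.19 and 5.76 in paf1△, and 0.742 and 0.675 in cdc73△. At the other 3 bases it was 3.84 and 4.54 in WT, 1.85 and 2.19 in paf1△, and 2.31 and 2.13 in cdc73△. The log2 ratio of paf1△ to cdc73△ was 3.08 at A and −0.14 over the other 3 bases together, where the deletions overlapped. They did not overlap at any of those bases singly. At G the mean was 3.32 and 4.51 in paf1△ against 1.67 and 1.72 in cdc73△ (log2 ratio 1.21). At C it was 1.12 and 1.27 against 0.957 and 0.851 (0.40), and at U 1.33 and 1.34 against 2.94 and 2.63 (−1.06), so that paf1△ was the higher at G and C and the lower at U.

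In the other spacers of the table these ratios were nearer to 1. Over the 5′ ETS, ITS1 and ITS2 the mean signal at A relative to the other bases was 1.61 and 1.58 in WT, 1.53 and 1.53 in paf1△, and 0.536 and 0.516 in cdc73△. In the downstream segment it was 4.79 and 4.15, 3.35 and 2.63, and 0.321 and 0.317. Downstream over other spacers, this ratio was 2.80 ± 0.252 in WT, 1.96 ± 0.334 in paf1△ and 0.606 ± 0.0111 in cdc73△ (SD, n = 2), with an exact permutation p of 0.333 for each pair, the smallest possible. Upstream, without the 6 positions marked there in capitals, the mean at A was 37.9 ± 1.60 in WT, 22.4 ± 2.40 in paf1△ and 10.4 ± 0.988 in cdc73△, while at U it was 30.1 ± 0.453, 29.8 ± 3.10 and 30.7 ± 3.37. At G it was 36.9 ± 5.31, 20.3 ± 1.14 and 26.5 ± 1.20, with both deletions below WT and no overlap. The means at A and U still include nt 33 (an A, 368 in WT) and nt 19 (a U, 406 in WT), which were far lower in both deletions. The gap at A therefore depends in part on nt 33. The likeness at U rests on nt 19, because equal means leave the other U lower on average in WT than in either deletion. Means without these bases were not computed. The part of ligation, sequencing or read depth in this base order was not tested.

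**Figure D5:**
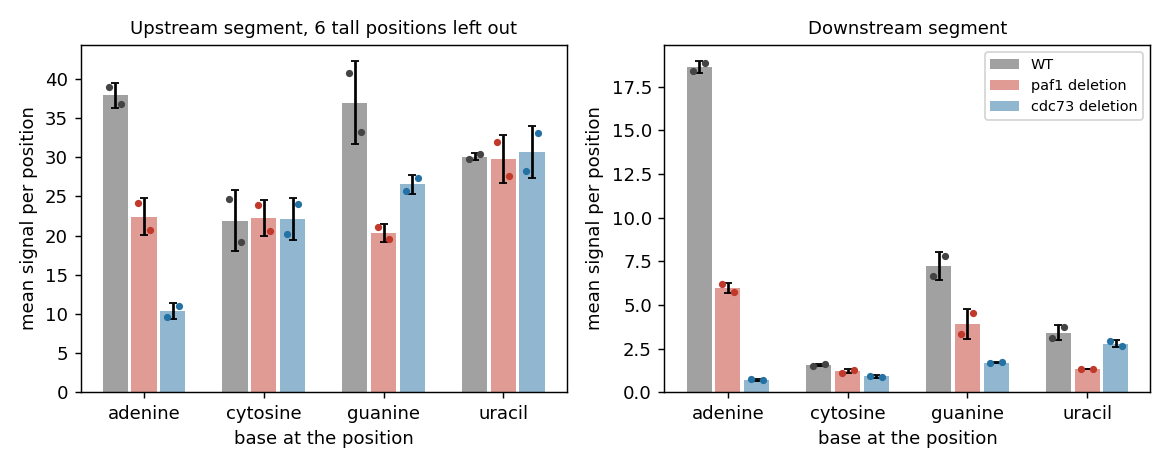
Mean signal per position by base in the upstream segment, without nt 3 to 5, 14, 15 and 92, and in the downstream segment, for the 3 genotypes. Points are libraries, bars are means and error bars are SD (n = 2). At adenine WT is highest and cdc73△ lowest in both segments, and upstream the genotypes overlap at cytosine and uracil. The upstream means include the WT peaks at nt 19 (a U) and nt 33 (an A).

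Single positions were tested with limma wherever at least 2 of the 4 libraries had signal. For paf1△ against WT 207 of the 211 could be tested, and 12 were higher and 40 lower, against 29.6% higher and 19.6% lower over the table. For cdc73△ against WT it was 15 higher and 59 lower of 208, against 30.0% and 29.4%, and for paf1△ against cdc73△ 61 higher and 32 lower of 209, against 34.4% and 20.6%. The shares called lower were thus near those of the table, and fewer positions were called higher against WT. In the downstream segment the counts were 0 higher and 23 lower for paf1△ against WT, 2 and 34 for cdc73△ against WT, and 28 and 10 between the deletions. Downstream medians of the log2 fold change were −0.05, −0.07 and 0.01, beside 0.09, −0.00 and 0.07 over all positions tested. The pseudocounts of 48.1, 44.3 and 47.4 pull these downstream medians and calls towards no change. The median downstream signal itself was 3.25 ± 1.66 in WT, which is about 1 read, 1.16 ± 0.157 in paf1△ and 0.808 ± 0.00858 in cdc73△ (SD, n = 2). Its log2 ratios were −1.49, −2.01 and 0.52 in the order of these comparisons.

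These counts moved with single libraries and with depth. For paf1△ against WT, they were 35 higher and 84 lower without WT replicate 1, 26 and 76 without WT replicate 2, 9 and 21 without paf1△ replicate 1, 11 and 18 without paf1△ replicate 2, and 5 and 18 after thinning. For cdc73△ against WT, they were 34 and 104, 38 and 104, 10 and 26, and 7 and 29 without the 2 WT and then the 2 cdc73△ libraries, and 7 and 35 after thinning. Between the deletions thinning left 11 higher and 4 lower. In the downstream segment thinning left 0 and 11, 1 and 22, and 4 and 0.

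By base, 18 of the 23 positions lower in paf1△ than in WT downstream were A, as were 24 of the 34 lower in cdc73△. Between the deletions 21 of the 28 positions higher in paf1△ were A, and 9 of the 10 lower were U. A makes up 42 of the 119 positions there and U 45. The mean downstream signal in WT was 18.6 at A, 7.22 at G, 3.42 at U and 1.56 at C, all below the pseudocounts. On that scale a change at a position low in both groups can hardly be called. The base split of these calls thus depends on which bases had signal high enough to be called, and it is no separate result. The mean signal also changed unevenly by base. Log2 ratios to WT at A, G, C and U were −4.72, −2.09, −0.79 and −0.29 in cdc73△. In paf1△ they were −1.64, −0.88, −0.38 and −1.36. The part of each in the split was not tested. Upstream, 3 of the 17 positions lower in paf1△ than in WT were A and 7 were G, and of the 25 lower in cdc73△ 9 were A and 8 were G. Over the whole table A made up 24.8% of the positions lower in paf1△ than in WT and 33.1% of those lower in cdc73△. Between the deletions, A made up 41.0% of the positions higher in paf1△ over the table and U 41.4% of those lower. In the same segment groups did not overlap at 73 of 117 tested positions for paf1△ against WT, 79 of 118 for cdc73△ against WT and 91 of 119 between the deletions, and over the table this held at 75.9%, 81.2% and 79.8% of positions.

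Replicates resembled each other more upstream than downstream. Spearman's rho over the 92 upstream positions was 0.869 between the WT libraries, 0.979 between the paf1△ and 0.989 between the cdc73△ libraries, and over the 119 downstream positions it was 0.680, 0.888 and 0.884. Between genotypes downstream, rho was 0.425 to 0.488 for WT with paf1△, −0.02 to 0.114 for WT with cdc73△ and 0.150 to 0.218 for paf1△ with cdc73△. These are descriptions across positions of the same sequence, which share base composition and, in WT, a depth at which many positions have no read.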

How the data were processed

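The deposited data are 3 tables, which pair the genotypes and hold a signal value per library at each of 6858 positions. Per the file headers a row gives the chromosome XII coordinate, the position in the transcribed unit, the base and the region. As the values show, each signal is a number of reads scaled so that the positions up to nt 92 of the 3′ ETS sum to 1000000, and later positions share that scale. Dividing by the smallest value gave whole reads, within 0.1 read, at 99.9% to 100% of positions in each library. The deposited fold, difference and p-value columns were not used here. Per the submitters' processing notes, build R64 was used with STAR 2.7.1a, cutadapt 3.4, bcl2fastq 2.20.00, bedtools 2.28.0, SAMtools 1.6, FastQC 0.11.7 and R 4.3.2. The use of molecular identifiers and the placing of reads among rDNA copies are steps not given in any source read here, and intervals cover counting error only.

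Shares were computed over all 6858 positions. Because the values are scaled signal, limma 3.58.1 in R 4.3.3 replaced the planned count test. Positions were fitted over the whole table as log2(value + 0.5 times the median of values above 0), which gave pseudocounts of 48.1 (paf1△ against WT), 44.3 (cdc73△ against WT) and 47.4 (paf1△ against cdc73△). Windows were fitted as log2 shares. Only the 4 libraries of a comparison entered each fit, with no block, Benjamini-Hochberg adjustment over the table and a threshold of 0.05, and the fits were tested on simulated data. Fold changes understate low positions. Named positions were, per comparison and segment, the 3 largest rises and falls among positions that passed, did not overlap and lay at or above the segment's median. The 5 highest positions of each genotype were named too, and others were chosen after their values were seen. All these choices used the tested values, so the tests of named positions are not independent of the choice. The members, lists and motifs were chosen with earlier results of these data known. edgeR 4.0.16 was run on recovered reads for cdc73△ against WT as an alternative, and no count test was run on the paf1△ columns. The gene name and coordinates come from the RefSeq table of R64.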

Additional observations from a re-analysis of the deposited data

Results flagged for a closer look

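Among the segments, windows and named positions, 4 places had the 2 deletions on opposite sides of WT with no overlap between the groups. The upstream segment held 0.521% ± 0.0125 of all signal in WT, 0.593% ± 0.0625 in paf1△ and 0.457% ± 0.0513 in cdc73△ (SD, n = 2), and the difference of the deletions could not be settled with 2 libraries each (exact permutation p = 0.333). With tall positions capped the means of both deletions lay below WT, at 0.498% ± 0.0337 and 0.466% ± 0.0455 against 0.541% ± 0.0118. Relative to the last 211 nt of 25S, cdc73△ overlapped WT (log2 ratio −0.02, exact permutation p = 1). The window of nt 70 to 92 held 0.0309% ± 0.00451, 0.0541% ± 0.00214 and 0.0256% ± 0.000529. The difference of the deletions there was 1.08 on the log2 scale (limma adjusted p = 4.1e-05), while cdc73△ did not pass the test against WT (−0.26, adjusted p = 0.066).

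Nt 26 had a mean signal of 69.0 ± 15.1 in WT, 39.0 ± 0.835 in paf1△ and 199 ± 18.4 in cdc73△, and nt 39 had 56.6 ± 11.2, 20.9 ± 6.03 and 99.5 ± 6.11 (SD, n = 2). Both differed between the deletions in limma (adjusted p = 1.4e-05 at nt 26 and 3.3e-05 at nt 39), and all 4 comparisons of these positions with WT passed the test. Of those 4, only the rise of nt 26 in cdc73△ was also followed through thinning and the leaving out of libraries.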

How the results depend on the processing

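Most results kept their direction and their side of the threshold: 229 of the 255 values recomputed for whole comparisons, 227 of 252 for windows and 397 of 405 for named positions. Counts of calls by segment were less stable, with 110 of 152 recomputed values kept and 42 moved. For shares and ratios only the direction could change, because their exact permutation p cannot fall below 0.333. The log2 ratio of paf1△ to WT for the whole 3′ ETS share, 0.01, turned to −0.28 with tall positions capped, to −0.02 without WT replicate 1 and to −0.10 without paf1△ replicate 1, with a range of −0.10 to 0.10 over the libraries left out. The upstream share turned from 0.19 to −0.12 with the cap. The window of nt 47 to 69, for paf1△ against WT, turned from 0.11 to −0.11 with equal medians and ranged from −0.011 to 0.23 over the libraries left out. The window of nt 1 to 23, for cdc73△ against WT, turned from −0.04 to 0.01 without WT replicate 2 and ranged from −0.19 to 0.11. None of these differences passed a test either way, and the cause was not tested.

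Thinning left 5 positions higher and 18 lower for paf1△ against WT, 7 and 35 for cdc73△ against WT, and 11 and 4 between the deletions. It makes WT-like depth for all, so low positions carry few reads. Over the libraries left out in turn, the counts ranged from 9 to 35 higher and 18 to 84 lower, from 7 to 38 and 26 to 104, and from 41 to 76 and 22 to 36. The windows higher in paf1△ than in WT were 1 or 2 without single libraries and 1 with equal medians. For cdc73△ against WT the window of nt 70 to 92 passed with equal 25S sums (−0.43, limma adjusted p = 0.006) and without WT replicate 1 (−0.41, adjusted p = 0.018). With edgeR on recovered reads, 16 positions were higher and 68 lower for cdc73△ against WT.

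Replicate numbers only name the samples. The deviations of same-numbered libraries correlated at 0.114 (WT with paf1△), 0.0359 (WT with cdc73△) and −0.23 (paf1△ with cdc73△). With the replicate number as a block, 12 positions were higher and 39 lower for paf1△ against WT, 17 and 59 for cdc73△ against WT, and 59 and 28 between the deletions, and the window of nt 70 to 92 passed for cdc73△ against WT (adjusted p = 0.038). A crossed pairing of the deletions, added after seeing the data, gave 66 and 31.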
